A study of Mus musculus with 3 samples.

Results

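The 7 genes described here are Fam132a, Lmcd1, Sct, Wfdc2, Mgp, Spag11b and Tenm4, 7 of the 27998 genes in the count matrix. They were named because an earlier reading of the same data found them higher in committing than in uncommitted nephron progenitors, so that difference is given below as a description and carries no test. The cells came from Six2GFP+ mouse embryos at E14.5 of gestation, in which a green fluorescent protein marks Six2 cells. Kidneys of many litters were pooled into 3 tubes, and live single GFP+ cells were sorted and captured in parallel with the 10x Chromium version 2 kit, which counts unique molecular identifiers (UMIs) of each gene in each cell. All 3 samples belong to the same group, with no treatment and no second genotype, so every comparison here is between cells of the same tubes. The pooled animals are not told apart.

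Nephron progenitors hold their undifferentiated state through Six2, and Cited1 marks them while they are uncommitted. On a Wnt signal from the ureteric bud they induce Pax8 and Wnt4, condense into a pretubular aggregate and turn into epithelium, when Lhx1 comes on. Most of the 7 genes encode secreted proteins. Secretin (Sct) is a gut hormone, Fam132a encodes the adipokine also called C1qtnf12 or adipolin, Mgp encodes matrix Gla protein, an inhibitor of calcification that binds BMP ligands, Wfdc2 encodes a whey acidic protein known from epididymal and other epithelia, and Spag11b a beta-defensin-like protein of the epididymis. Tenm4 is a teneurin, a transmembrane protein that binds latrophilin receptors across cell contacts, and Lmcd1 is a LIM-domain protein that acts in the nucleus and cytoplasm with GATA6 and calcineurin.

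In the GENCODE M21 annotation of GRCm38 (mm10), all 7 are protein-coding genes. Fam132a lies on the plus strand of chromosome 4 at 155962318 to 155966629. Lmcd1 lies on the plus strand of chromosome 6 at 112273758 to 112330425 and Mgp on the minus strand of the same chromosome at 136872435 to 136875823. Sct occupies 804 bases of the minus strand of chromosome 7, at 141278330 to 141279133. Tenm4 spans 739848 bases of the plus strand of chromosome 7, at 96171246 to 96911093. Wfdc2 lies on the plus strand of chromosome 2 at 164562413 to 164568510, and Spag11b on the plus strand of chromosome 8 at 19140759 to 19143010. Lmcd1, Spag11b and Tenm4 overlap other annotated genes, among them Gm44193, Gm45826 and Mir708 on their own strands and 5031434C07Rik opposite Lmcd1. No label records whether counting used the strand, so UMIs of these 3 genes cannot be fully told apart from their neighbours.

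The RefSeq promoter table of GRCm38.p6 held 4 of the 7 members, Lmcd1, Sct, Wfdc2 and Tenm4. The 250 bases before the start are shown for Lmcd1 and Sct, which were higher in Pax8 than in Six2-only cells below, and for the first of the starts of Tenm4, which did not pass that test. All 3 are written 5′ to 3′ on the strand of the gene, with GGCGCC, the GC-rich word of BMP-responsive SMAD elements, in capitals. The windows are chr6:112273508-112273757 (plus strand), chr7:141279134-141279383 (minus strand) and chr7:96170994-96171243 (plus strand).
Lmcd1: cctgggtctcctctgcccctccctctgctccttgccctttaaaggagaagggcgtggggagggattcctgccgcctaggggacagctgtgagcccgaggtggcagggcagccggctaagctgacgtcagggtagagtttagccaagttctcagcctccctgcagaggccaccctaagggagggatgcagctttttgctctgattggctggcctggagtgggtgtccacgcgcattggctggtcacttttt
Sct: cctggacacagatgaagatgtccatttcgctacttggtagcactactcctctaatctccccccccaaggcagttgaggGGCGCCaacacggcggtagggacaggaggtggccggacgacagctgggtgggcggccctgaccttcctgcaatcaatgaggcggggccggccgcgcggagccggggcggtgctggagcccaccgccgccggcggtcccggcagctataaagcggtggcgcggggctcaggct
Tenm4: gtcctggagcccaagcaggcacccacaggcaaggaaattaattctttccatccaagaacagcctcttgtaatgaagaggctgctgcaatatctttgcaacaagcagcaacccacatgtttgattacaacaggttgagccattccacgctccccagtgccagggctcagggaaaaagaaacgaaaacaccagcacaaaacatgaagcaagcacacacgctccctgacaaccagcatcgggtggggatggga

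The windows of Lmcd1 and Sct held 61.2% and 68% G and C and that of Tenm4 50.8%, against a median of 52.4% over the 32851 promoters in the table. The word GGCGCC stood once in the Sct window, at position -172, and once in that of Wfdc2, 109 bases before the RefSeq start, as it did in 9.59% of all promoters. The Wfdc2 window, chr2:164562465-164562714, lies inside the GENCODE gene, which begins further upstream. Searched on both strands, the TCF/LEF words CTTTGAA with its variant CTTTGAT, or CTTTGTA with its variant CTTTGTT (in 14.8% of all promoters), the SIX2 word TCANGTTTC (0.989%) and the PAX word GCGTGAC (1.78%) were in none of the windows of the 4 members. These are matches of letters and no measure of binding.

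The matrix held 7924 barcodes, and 7898 passed the filters on gene number and mitochondrial share. Library 1 had 3024 of these cells and 50894264 UMIs, library 2 had 2760 and 35268524, and library 3 had 2114 and 35816105. A library is named by the suffix of its barcodes, since the labels do not tie the suffixes to the 3 samples. Nothing shows that the tubes held different animals. With library as a block, p-values measure how differences between groups of the same tube vary from tube to tube, and not a spread between animals. Library 2 stood apart, with a ribosomal share of 12.9% of UMIs against 24.5% and 20.9%, and a median of 11915 UMIs per cell against 15914 and 15815. In all, 22 barcode sequences occurred in more than 1 library (44 barcodes).

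Cells were grouped by raw UMIs. The Six2-only group (Six2 present, Wnt4, Pax8 and Lhx1 absent) held 4354 cells, the Pax8 group (Pax8 present, Wnt4 and Lhx1 absent) 1971, the Wnt4 group (Wnt4 present, Lhx1 absent) 413 and the Lhx1 group 79, and 1081 cells without UMIs of any of the 4 genes stayed outside. Of the 413 Wnt4 cells, 281 held a lone Wnt4 UMI, and of the 79 Lhx1 cells, 47 held a lone Lhx1 UMI. The Lhx1 group had only 31, 29 and 19 cells in the 3 libraries. Median depth was 14030, 16625, 18385 and 16238 UMIs per cell in that order. The summed level of 8 early nephron markers (Lhx1, a group gene, among them) was 343 ± 26.2 CPM (UMI counts scaled to a common library total; SD, n = 3 libraries) in the Lhx1 group, 14.96 ± 3.03 in the Wnt4 group and 4.86 ± 1.28 in the Six2-only group.

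Fam132a was the most widely detected of the 7, with 9438 UMIs in 4643 cells (58.8% of those kept). In libraries 1, 2 and 3 it stood at 56.7, 75.1 and 63.5 CPM in Six2-only cells, 72.3, 89.0 and 76.7 in Pax8 cells, 173, 212 and 197 in Wnt4 cells and 138, 85.6 and 111 in Lhx1 cells. The Wnt4 group lay above every other group in all 3 libraries with no overlap, while Six2-only and Pax8 overlapped across libraries although Pax8 was higher within each.

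Lmcd1 had 1365 UMIs in 902 cells. Its level was 6.39, 10.7 and 7.95 CPM in Six2-only cells, 13.2, 13.5 and 13.9 in Pax8 cells, 23.6, 35.1 and 28.5 in Wnt4 cells and 21.1, 24.1 and 26.5 in Lhx1 cells. Six2-only, Pax8 and the later groups did not overlap, and the ranges of the Wnt4 and Lhx1 groups did.

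Sct was sparse, with 967 UMIs in 701 cells. It stood at 8.96, 2.15 and 5.09 CPM in Six2-only cells, 14.8, 3.51 and 8.09 in Pax8 cells, 29.7, 5.95 and 19.4 in Wnt4 cells and 11.9, 5.35 and 28.9 in Lhx1 cells. Library 2 was lowest in every group, and within each library the level was higher in Pax8 than in Six2-only and in Wnt4 than in Pax8 cells, although all neighbouring ranges overlapped. Wfdc2, Mgp and Spag11b were also lowest in library 2 in all 4 groups, and that library had the lowest ribosomal share, whose part in these levels was not tested.

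Wfdc2, with 3344 UMIs in 1894 cells, was higher in each later group. Its levels were 23.0, 13.0 and 20.4 CPM in Six2-only cells, 36.8, 21.3 and 36.0 in Pax8 cells, 58.4, 38.4 and 73.1 in Wnt4 cells and 177, 96.3 and 263 in Lhx1 cells. Each difference was present in every library, and the Pax8, Wnt4 and Lhx1 ranges did not overlap. The Lhx1 group held 8.34% of all Wfdc2 UMIs in 79 cells.

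Mgp had 730 UMIs in 592 cells. It stood at 5.17, 2.45 and 5.88 CPM in Six2-only cells, 7.89, 2.004 and 5.72 in Pax8 cells, 17.1, 3.31 and 19.8 in Wnt4 cells and 17.1, 10.7 and 19.3 in Lhx1 cells. In library 2 the Wnt4 group barely exceeded Six2-only, and Pax8 cells were above Six2-only cells in 1 of 3 libraries.

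Tenm4, with 667 UMIs in 507 cells, had the largest log2 difference of the 7 between Wnt4 and Six2-only cells. Its levels were 3.50, 4.70 and 3.95 CPM in Six2-only cells, 4.98, 3.01 and 3.88 in Pax8 cells, 22.9, 15.2 and 19.0 in Wnt4 cells and 29.0, 2.67 and 43.4 in Lhx1 cells. The Six2-only and Pax8 groups overlapped fully, the Wnt4 group lay above both in all 3 libraries, and the Lhx1 group had the highest value in library 3. In library 2 the Lhx1 value rested on 1 UMI in 29 cells. It is under the 8.02 CPM that 3 counts would give there, so it cannot be placed above or below Six2-only.

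Spag11b was in only 284 cells (3.60%), with 573 UMIs. It stood at 3.54, 2.50 and 2.67 CPM in Six2-only cells, 6.92, 5.31 and 7.23 in Pax8 cells, 15.2, 6.62 and 10.3 in Wnt4 cells and 10.6, 5.35 and 7.23 in Lhx1 cells. Few cells carried it: 10 of the 413 Wnt4 cells held 67% of the group's Spag11b UMIs, with 18 in the highest, and 19 cells with 5 or more UMIs held 29.5% of all its UMIs. In the Wnt4 group the highest 10 cells held between 15.2% (Fam132a) and 30.6% (Sct) for the other 6 members.

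**Figure D1:**
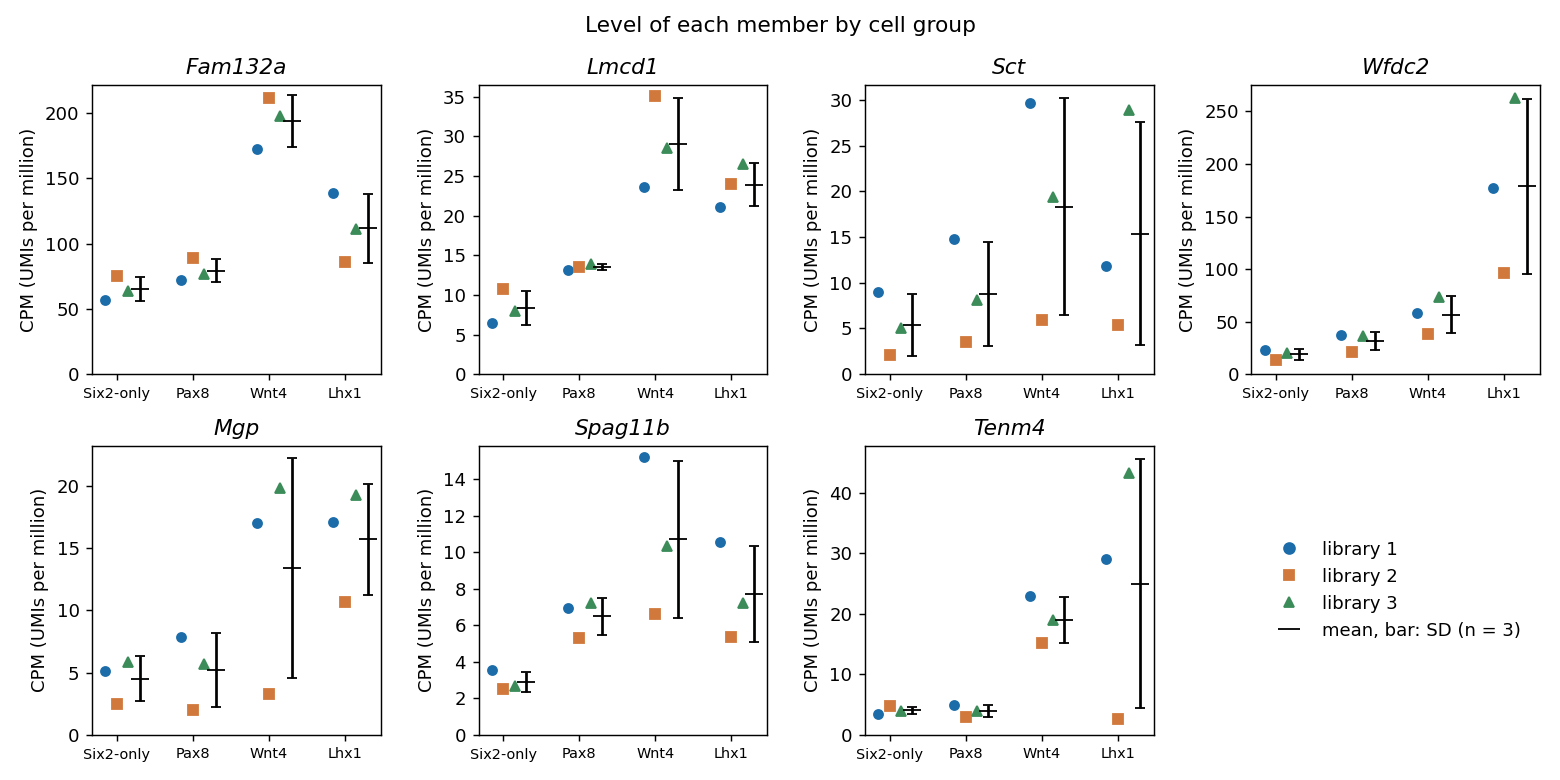
Level of each member in CPM (linear axis from 0) by cell group, with 1 point per library and the mean with its SD beside them (n = 3). Wfdc2 goes on up into the Lhx1 group (96.3 to 263 CPM) whereas Fam132a is highest in the Wnt4 group (173 to 212 CPM), and library 2 is lowest in all 4 groups for Sct, Wfdc2, Mgp and Spag11b.

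Cells of another lineage were read for background, where free RNA and doublets were not told apart. In 73 immune cells (at least 3 of 6 immune markers, median 9468 UMIs per cell) no UMI was found of Lmcd1, Sct, Wfdc2 or Spag11b, which allows at most 4.01 CPM each for counting error. Fam132a was at 13.4 ± 5.53 CPM (SD, n = 3) there, Mgp had 3 UMIs and Tenm4 had 1. The Six2-only means of Sct (5.40 CPM), Mgp (4.501), Tenm4 (4.05) and Spag11b (2.90) lie near or under this limit, so how much of their Six2-only level is background was not detectable at this depth. In the 1081 cells outside the groups the 7 members were at 3.24 CPM (Spag11b) to 65.4 CPM (Fam132a).

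The first tested comparison asked which members were higher in cells with Pax8 but no Wnt4 UMI than in Six2-only cells. Of the 413 Wnt4 cells, 281 held a lone Wnt4 UMI, so some Pax8 cells may hold Wnt4 RNA that was not counted. The part of such cells in these differences was not tested. Among the secreted proteins, Spag11b was higher by 1.12 ± 0.15 on the log2 scale (SE, adjusted p = 8.12e-07, edgeR's quasi-likelihood test, Benjamini-Hochberg over 11867 genes), Wfdc2 by 0.74 ± 0.08 (1.97e-09), Sct by 0.71 ± 0.13 (7.20e-05) and Fam132a by 0.29 ± 0.05 (1.78e-05). Lmcd1 was higher by 0.73 ± 0.11 (edgeR adjusted p = 2.73e-06), and all 5 were higher in 3 of 3 libraries. The Spag11b difference rests on few cells. The highest 10 cells held 40.1% of its UMIs in the Pax8 group (1971 cells) and 26.3% in the Six2-only group (4354 cells). Mgp, at 0.26 ± 0.16 (edgeR adjusted p = 0.254), and Tenm4, at 0.02 ± 0.20 (0.960), did not pass. All 7 members passed the filter on low counts, and 5 were called higher and none lower where 9.74% of all genes tested were higher and 10.6% lower (20.4% in all). The comparison shares its Six2-only cells with the choice of the members, so it is not independent of that choice.

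These calls rest on comparing groups within libraries. Without the library term no member passed, with edgeR adjusted p from 0.0692 (Lmcd1) to 0.971 (Sct) for the 5. With DESeq2 Sct also lost its call (adjusted p = 0.0709).

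Against Six2-only cells, the Wnt4 group, the contrast that chose the genes, gave log2 differences of 2.29 ± 0.21 for Tenm4, 1.96 ± 0.21 for Spag11b, 1.78 ± 0.14 for Lmcd1, 1.76 ± 0.16 for Sct, 1.60 ± 0.19 for Mgp, 1.57 ± 0.06 for Fam132a and 1.54 ± 0.10 for Wfdc2 (SE). In that contrast 10.2% of genes were higher and 9.68% lower by the same test (19.8% in all), and nothing is read from it for the members. Requiring at least 2 UMIs of each defining gene raised all 7 values, to between 2.15 (Wfdc2) and 3.001 (Tenm4). The Spag11b value was 0.91 without the 6% of cells with the most UMIs, 0.97 after every cell was thinned to 8000 UMIs and 1.31 without cells with 2 markers of another lineage.

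The second tested comparison took the later step, from Wnt4 to Lhx1 cells. Wfdc2 was higher in Lhx1 cells by 1.63 ± 0.14 on the log2 scale (SE, edgeR adjusted p = 7.64e-11) and Fam132a lower by a log2 difference of -0.70 ± 0.13 (0.000461), each in 3 of 3 libraries. Lmcd1 (-0.26 ± 0.28, edgeR adjusted p = 0.865), Sct (-0.53 ± 0.34, 0.675), Spag11b (-0.52 ± 0.42, 0.790), Mgp (0.12 ± 0.35, 0.963) and Tenm4 (0.38 ± 0.34, 0.823) did not pass, with errors that leave room for sizeable changes either way. Of all genes tested 1.26% were higher and 0.303% lower (1.56% in all). This comparison shares its Wnt4 cells with the choice of the members, which were chosen as high there, so a lower value in Lhx1 cells is not independent of that choice. Without the library term neither call held (edgeR adjusted p = 0.194 for Wfdc2 and 0.1004 for Fam132a). Lmcd1 passed where each defining gene needed 2 UMIs, at -1.585 (edgeR adjusted p = 0.0212), and not under the other alternatives.

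**Figure D2:**
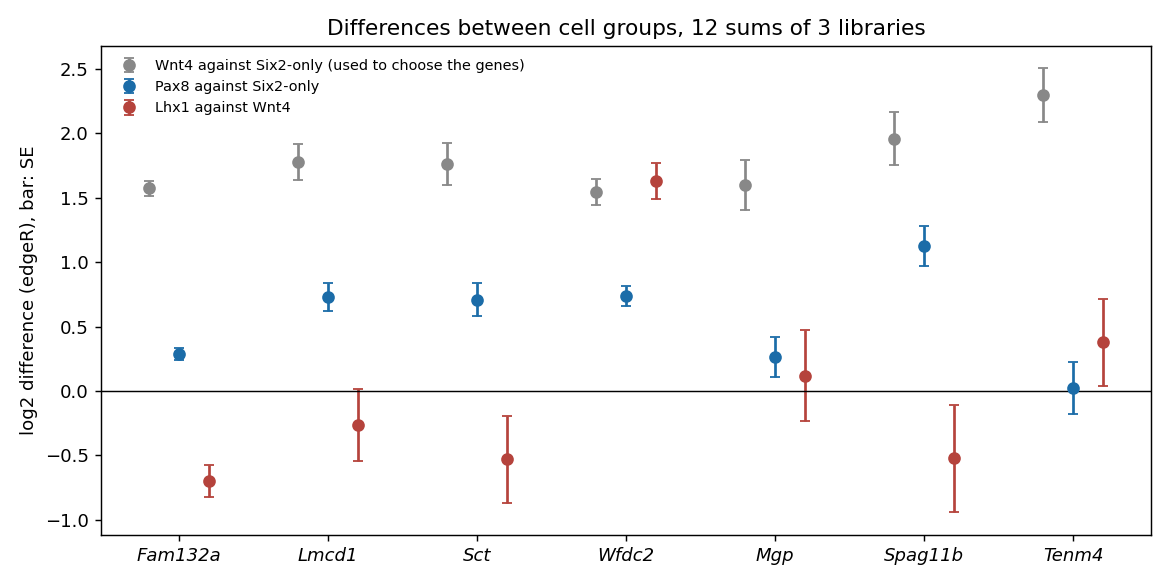
Log2 differences from 1 edgeR fit of 12 sums (4 groups in 3 libraries), with SE bars, for the 3 comparisons. Grey points are the contrast that chose the genes; Tenm4 and Mgp lie near 0 in the Pax8 comparison (0.02 and 0.26), and in the Lhx1 comparison Wfdc2 is at 1.63 and Fam132a at -0.70.

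Markers of the ureteric bud moved with the Lhx1 group. The 8 ureteric genes summed to between 92.3 and 356 CPM there, with 7 of 8 detected and Upk3a at 0, against 47.4 to 56.9 CPM in the Wnt4 group, where Ret, Wnt9b and Upk3a were at 0. Of the 79 Lhx1 cells, 6 carried at least 2 of these markers, and they held Wfdc2 at 662 ± 333 CPM (SD, n = 3). The remaining 73 held it at 132 ± 66.9 CPM (149, 57.7 and 188 in libraries 1, 2 and 3). Without the 6 cells the Lhx1 range thus overlapped that of the Wnt4 group (38.4 to 73.1 CPM), although each library was still higher. Without cells carrying 2 ureteric markers in any group, an alternative chosen after these values were seen, Wfdc2 was still higher by 1.29 (edgeR adjusted p = 2.18e-08). Leaving out cells with 2 markers of any of 5 other lineages gave 1.13 (edgeR adjusted p = 2.35e-06). Fam132a stayed lower without the ureteric cells (-0.60, edgeR adjusted p = 0.00479).

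Within the Lhx1 group, Tenm4 stood at 44.2 ± 26.8 CPM (SD, n = 3) in the 24 cells that also had Wnt4 and at 7.29 ± 8.10 in the 55 that did not. A Tenm4 UMI was in 14 of the 24 (58.3%) and 6 of the 55 (10.9%) unthinned, and in 8 of 24 (33.3%) and 2 of 54 (3.70%) after thinning to 8000 UMIs. The cells with Wnt4 were deeper, with a median of 23651 against 13521 UMIs, and library 2 supplied 3 of the 24. Fam132a was at 161 ± 31.1 against 89.4 ± 34.1 CPM in the same cells. Wfdc2 differed by less than its spread in level, at 197 ± 61.1 against 174 ± 97.7 CPM, although 75% against 31.5% of the thinned cells held it. Split by Lhx1 itself, Wfdc2 was at 108 ± 77.8 CPM in the 47 cells with 1 Lhx1 UMI and 261 ± 53.2 in the 32 with 2 or more. Their median depths were 13727 and 23334 UMIs. No test was made of these splits. Wnt4 also defines the contrast that chose the members, so the split by Wnt4 is not independent of that choice and is a description.

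Levels also followed the number of Wnt4 UMIs. The step from cells without Wnt4 to cells with it rests on the contrast that chose the genes, so these values are a description. Over cells without Lhx1 holding 0, 1, 2 and 3 or more Wnt4 UMIs (7406, 281, 61 and 71 cells), mean Fam132a was 69.5 ± 8.43, 134 ± 50.9, 228 ± 29.6 and 346 ± 45.8 CPM (SD, n = 3). Tenm4 went from 4.09 ± 0.13 through 12.2 ± 2.34 and 21.5 ± 12.5 to 39.3 ± 10.1 CPM, and Wfdc2 from 22.5 ± 6.03 through 39.1 ± 7.54 and 76.6 ± 22.8 to 95.9 ± 11.0. Sct went from 6.29 ± 4.17 through 11.2 ± 10.6 and 25.5 ± 10.5 to 36.8 ± 12.035 CPM.

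From 2 to 3 or more Wnt4 UMIs, Fam132a and Wfdc2 were higher in all 3 libraries and Tenm4 and Sct in libraries 1 and 2. Lmcd1 and Spag11b were higher in library 1 alone and Mgp in none. Lmcd1 was at 9.97 ± 1.20, 21.2 ± 6.47, 50.6 ± 27.5 and 43.6 ± 10.3 CPM, and Mgp at 5.00 ± 1.99, 6.20 ± 3.24, 25.2 ± 15.8 and 21.03 ± 18.3 CPM. Spag11b was at 4.03 ± 0.70, 6.20 ± 0.39, 17.4 ± 5.53 and 17.2 ± 22.2 CPM. Library 2 had only 8 and 7 cells in the top classes, and median depth was 14363, 16884, 20500 and 24028 UMIs per cell, whose part was not tested. Cited1, the marker of the uncommitted state, ran the other way, from 174 ± 22.9 to 37.1 ± 26.6 CPM.

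**Figure D3:**
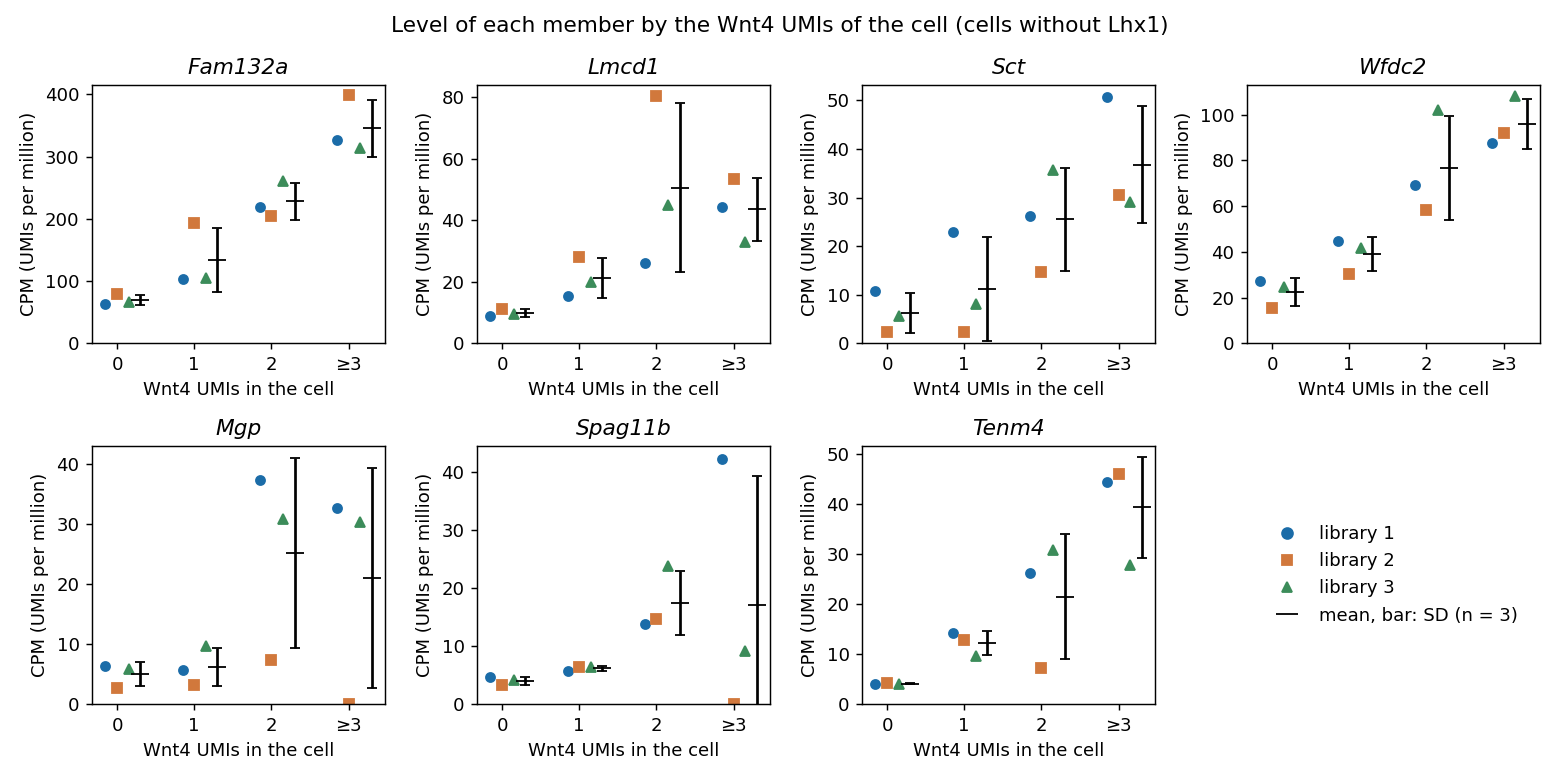
Level of each member in CPM (linear axis from 0) in cells without Lhx1, by the number of Wnt4 UMIs in the cell, with 1 point per library and the mean with SD (n = 3). Fam132a goes from 69.5 CPM at 0 Wnt4 UMIs to 346 CPM at 3 or more, and Spag11b spreads widely in the top class (17.2 ± 22.2 CPM).

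The Wnt4 group split almost evenly by Cited1, with 210 cells that held it and 203 that did not. Fam132a was at 130 ± 10.9 CPM with Cited1 and 272 ± 61.3 without (SD, n = 3), and Tenm4 at 11.5 ± 5.13 and 28.1 ± 1.48, with no overlap between libraries for either. Mgp was at 7.89 ± 5.05 and 19.6 ± 13.1 CPM, Lmcd1 at 24.3 ± 3.08 and 35.0 ± 9.71, Sct at 14.3 ± 10.7 and 23.1 ± 12.8, and Wfdc2 at 51.1 ± 17.7 and 63.2 ± 16.6. Spag11b was at 10.2 ± 5.66 and 11.1 ± 8.52 CPM. The differences of Mgp, Sct, Wfdc2 and Spag11b were smaller than the larger SD between libraries. Compared within each library, Mgp, Sct and Wfdc2 were still higher without Cited1 in all 3. Spag11b was lower without Cited1 in library 3 (15.9 CPM with and 3.62 without). All 7 means were higher in the cells without Cited1. Cited1 marks the uncommitted state, and the members were chosen as higher in committing than in uncommitted cells. The split is therefore not independent of that choice, and its values are a description.

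Co-detection with Wnt4 was counted after thinning each cell to 8000 UMIs, which left out 449 shallower cells and kept 260 Wnt4-positive and 7189 Wnt4-negative cells. It rests on the contrast that chose the genes and is a description. Tenm4 was in 14.8% ± 8.19 of Wnt4-positive and 3.13% ± 0.10 of Wnt4-negative cells (SD, n = 3), a ratio of 4.67 with 1.84 to 6.59 over libraries. Sct was in 14.4% ± 6.33 against 3.98% ± 2.63 (ratio 4.003), Lmcd1 in 20.6% ± 6.48 against 6.33% ± 0.61 (3.21) and Mgp in 10.9% ± 6.48 against 3.67% ± 1.49 (2.81). Wfdc2 was in 31.8% ± 5.14 against 13.5% ± 3.29 (2.39), and Fam132a, common in both, in 61.3% ± 4.31 against 41.0% ± 4.20 (1.504).

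Spag11b gave 3.18% ± 1.94 against 2.07% ± 0.54. It was below the Wnt4-negative share in library 1 (3 of 132 cells, 2.27%, against 2.69%), close to it in library 2 (1 of 54 cells, 1.85%, against 1.71%) and above it in library 3 (4 of 74 cells, 5.41%, against 1.80%). Over the 3 libraries together, 8 of 260 Wnt4-positive cells held it (3.08%, exact 95% interval 1.34% to 5.97%) against 2.10% (1.78% to 2.46%) of the others. Unthinned, 8.70% of Wnt4-positive and 3.30% of other cells had a Spag11b UMI.

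Unthinned shares for the other members, over the 3 libraries together, were 82.4% against 57.4% for Fam132a, 50.1% against 22.5% for Wfdc2, 30.4% against 10.3% for Lmcd1, 26.5% against 5.24% for Tenm4, 25.6% against 7.89% for Sct and 20.6% against 6.73% for Mgp. Among immune cells, unthinned shares were 9.59% for Fam132a, 4.11% for Mgp, 1.37% for Tenm4 and 0 of 73 for the rest, which allows up to 4.11% for counting error.

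**Figure D4:**
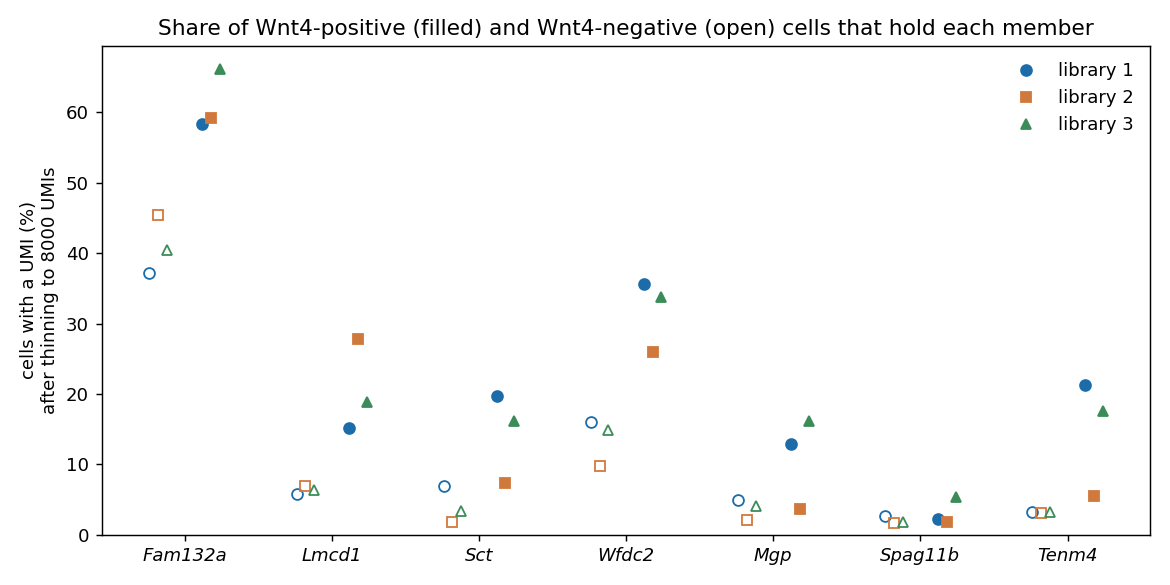
Share of Wnt4-positive (filled) and Wnt4-negative (open) cells with a UMI of each member after thinning to 8000 UMIs, 1 point per library, on a linear axis in percent. Filled points lie above open points of the same library for 6 members; Spag11b crosses in library 1 (2.27% against 2.69%).

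More members were found per cell in the Pax8, Wnt4 and Lhx1 groups than in the Six2-only group, though most cells held at most 1. The rise from Six2-only to Wnt4 cells follows from how the genes were chosen and is a description. After thinning, a cell held on average 0.675 ± 0.017 of the 7 in the Six2-only group, 0.879 ± 0.050 in the Pax8 group, 1.34 ± 0.148 in the Wnt4 group and 1.40 ± 0.449 in the Lhx1 group (SD, n = 3), against 0.0972 ± 0.0867 in immune cells. With Fam132a left out, the means over the 3 libraries together were 0.280, 0.437, 0.792 and 0.846. With all 7 members the Wnt4 and Lhx1 groups were alike over the 3 libraries together, at 1.37 each. In library 2 the Lhx1 mean (0.893) lay below the Wnt4 mean (1.18). The share of cells with none of the 7 was 46.5% ± 0.788, 37.1% ± 1.76, 24.2% ± 1.14 and 21.9% ± 12.8. At least 4 members were found in 5 of 4164 Six2-only cells and 20 of 404 Wnt4 cells, 14 of the latter in library 1.

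Within the Wnt4 group, Mgp and Sct shared 12 of 404 cells where the product of their shares gives 4.92, and Mgp and Tenm4 shared 11 against 4.73. Wfdc2 and Mgp shared 18 against 10.0. Spag11b shared 1 cell each with Lmcd1, Sct and Tenm4, against products of 2.42, 2.02 and 1.94. It shared 3 cells with Mgp against 1.54 and 4 with Wfdc2 against 4.12. Pairs with the common Fam132a stood at 1.07 to 1.44 times the product. These counts pool libraries that differ in level and are given without a test.

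**Figure D5:**
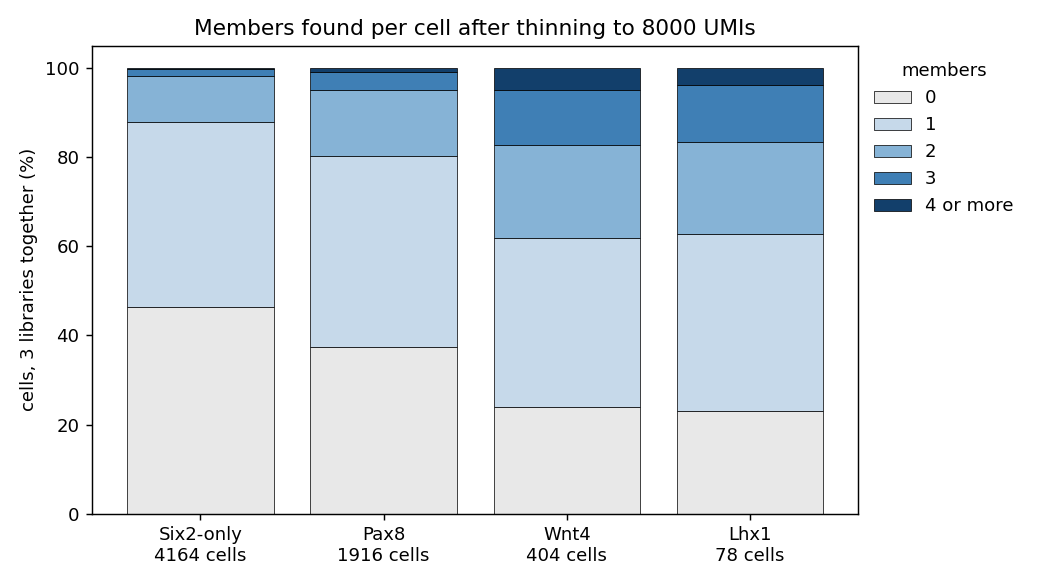
Share of cells (in percent, 3 libraries together) that held 0, 1, 2, 3 or at least 4 of the 7 members after thinning to 8000 UMIs, for the 4 cell groups, with cell numbers under the bars. Cells with none fall from 46.5% of Six2-only to 24.0% of Wnt4 cells, the contrast that chose the genes.

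Over the 12 sums, each centred on its library, the genes most like each member by Pearson's r of log2 CPM were Id2 and Rhou for Fam132a (0.98 and 0.97), Igf2 and Frzb for Lmcd1 (0.97 each), Mrps26 and Unc5b for Sct (0.97 and 0.96), and Orai1 and Bcam for Wfdc2 (0.99 each). They were Metap1 and Cldn10 for Mgp (0.95 each), Apex1 and Nudcd2 for Spag11b (0.96 each) and Vegfc and Gatsl3 for Tenm4 (0.97 each). Among the members, Lmcd1 and Spag11b were most alike (0.90) and Fam132a and Wfdc2 least (0.50). The points share 3 libraries and 4 groups, and these are descriptions without a test.

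Relatives and partners of the members were read from a list of 53 genes, of which 27 passed the filter on low counts. From Six2-only to Pax8 cells 3 were higher and 5 lower by the edgeR test, where 9.74% and 10.6% of all genes tested were, with a median log2 difference of -0.14 against -0.02 over all genes. From Wnt4 to Lhx1 cells 3 were higher and none lower by the edgeR test, where 1.26% and 0.303% of all genes tested were. The secretin receptor Sctr had 9 UMIs in all kept cells, and none of the 8 genes of its family list passed the filter. Spag11a, the neighbouring relative of Spag11b, had 6 UMIs.

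Among partners of Tenm4, the latrophilin Adgrl2 fell from 96.3 ± 10.4 CPM in Six2-only to 78.8 ± 12.6 in Pax8 cells (SD, n = 3), a log2 difference of -0.30 ± 0.04 (SE, edgeR adjusted p = 2.12e-06), and stood at 61.9 ± 5.10 in Wnt4 cells. Flrt2 and Flrt3, which also bind latrophilins, were lower in Pax8 cells by log2 differences of -0.39 ± 0.09 (edgeR adjusted p = 0.00111) and -0.47 ± 0.08 (2.07e-05). The paralog Tenm3 stood at 20.01 ± 0.48 and 21.2 ± 4.47 CPM in Six2-only and Wnt4 cells and passed no test.

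Of the BMP ligands that Mgp binds, Bmp2 was higher in Pax8 than in Six2-only cells by 1.07 ± 0.23 on the log2 scale (edgeR adjusted p = 0.000816) and higher again in Lhx1 than in Wnt4 cells by 2.59 ± 0.31 (2.14e-07). Its levels were 2.08 ± 1.04, 4.26 ± 1.79, 9.43 ± 0.52 and 65.3 ± 32.9 CPM through the 4 groups. Bmp4 was lower in Pax8 cells by a log2 difference of -0.58 ± 0.08 (edgeR adjusted p = 1.13e-06) and higher in Lhx1 than in Wnt4 cells by 1.60 ± 0.24 (2.97e-05). The vitamin K enzymes that activate Gla proteins were present, Vkorc1 at 63.8 ± 18.1 and 59.7 ± 13.7 CPM and Ggcx at 9.88 ± 2.05 and 6.92 ± 1.62 CPM in Six2-only and Wnt4 cells. Vkorc1l1 was higher in Pax8 cells by 0.21 ± 0.08 (edgeR adjusted p = 0.0450).

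Spint2, a membrane protease inhibitor read beside Wfdc2, was lower in Pax8 than in Six2-only cells (-0.27 ± 0.06, edgeR adjusted p = 0.00122) and higher in Lhx1 than in Wnt4 cells (1.73 ± 0.20, 7.95e-08), at 37.3 ± 9.04, 31.4 ± 8.52, 23.1 ± 3.94 and 81.5 ± 16.9 CPM. Ppp3ca, a calcineurin subunit on the list for Lmcd1, was higher in Pax8 cells by 0.13 ± 0.04 (edgeR adjusted p = 0.00694). Of the 3 C1q/TNF relatives of Fam132a that could be tested, C1qtnf4, C1qtnf6 and C1qtnf7, none passed in either comparison. Of 14 alternatives, the Pax8 calls of these partners held in 13 for Flrt2 and Bmp4, 12 for Adgrl2, Flrt3 and Bmp2, 11 for Ppp3ca, 9 for Spint2 and 5 for Vkorc1l1. The Lhx1 calls held in 14 for Bmp2 and Spint2 and in 13 for Bmp4.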

How the data were processed

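Single-cell RNA-seq counts of sorted E14.5 Six2GFP+ mouse cells from 3 tubes were used. The authors deposited whole-number UMI counts per gene and cell, for which the submitters' processing notes name Cell Ranger 1.3.1 and the mm10 build. Other upstream filters and the counting strand are not recorded in the labels. The members and gene lists were chosen with earlier results of these data known. The genes named are the 7 members, relatives and partners with a group mean of at least 5 CPM or a count given for their family, and the 2 genes most like each member.

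Cells with at least 1000 genes and at most 10% mitochondrial UMIs were kept (26 barcodes removed; Python 3.11.15). Doublets were not called here; the sort gated on size, and an alternative left out the 6% of cells with the most UMIs in each library. UMIs were summed into 12 sums (4 groups in 3 libraries) and fitted together with edgeR 4.0.16 in R 4.3.3 (TMM, filterByExpr, library as a block, glmQLFTest, two-sided, Benjamini-Hochberg, threshold 0.05). Alternatives were DESeq2 1.42.0, RLE factors, no filter, no block, all barcodes, other cell sets and leaving out each library. Sums of the same library come from the same tube, and their deviations from the group means correlated at 0.081 to 0.87 (median 0.319, 18 pairs). Between libraries the median was -0.186. Centring each group on the mean of its 3 libraries pushes that value down, so it is no reference for the first. Shares of cells with a UMI are given after thinning cells to 8000 UMIs or, where said, unthinned. Intervals are exact Clopper-Pearson and, like the limit of 3 counts, cover counting error only. The fit was tested on simulated data.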

Additional observations from a re-analysis of the deposited data

How the results depend on the processing

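Of the calls for members, all 5 in the Pax8 comparison and both in the Lhx1 comparison were lost without the library block, and the Sct call in the first was also lost with DESeq2; under the other alternatives run these calls held. Genes higher in Pax8 than in Six2-only cells numbered 1156, and 527 with DESeq2, 3 without the replicate block, 496 thinned to 8000 UMIs and 584 (without library 1) to 1139 with each library left out. Genes lower numbered 1259, and 279, 11, 415 and 621 to 822 under the same settings. Genes higher in Lhx1 than in Wnt4 cells numbered 149, and 78 without the block, 66 without the cells with the most UMIs, 71 without cells with markers of another type, 82 without ureteric cells, 33 thinned and 51 (without library 1) to 175 with each library left out. Genes lower numbered 36, and 85 without a filter, 12 without the block, 18 without the deepest cells, 86 with 2 UMIs of the defining gene, 14 thinned, 17 without ureteric cells and 6 to 81 with each library left out, the 81 without library 2 and the 6 without library 1.

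Differences that passed no test changed sign in places. In the Pax8 comparison Mgp ranged from -0.1156 (without library 1) to 0.426 with each library left out. Tenm4 was -0.0655 with DESeq2, -0.1206 without the deepest cells, -0.03 without other cell types, -0.0082 thinned, -0.0069 without ureteric cells and -0.3308 (without library 1) to 0.3062 with each library left out. In the Lhx1 comparison Lmcd1 was 0.0726 without the deepest cells, and Sct -1.2205 to 0.3886 (without library 1) with each library left out. Mgp was -0.1748 without the deepest cells, -1.1018 with 2 UMIs, -0.0972 thinned and -0.0404 (without library 2) to 0.2641 with each library left out. Spag11b was 0.3904 without the deepest cells and 0.918 thinned. Tenm4 was -0.2723 with 2 UMIs, -0.3734 thinned and -0.0686 (without library 3) to 0.6427 with each library left out. The Spag11b ratio of Wnt4-positive to Wnt4-negative shares was 0.9641 (without library 3) to 2.0422 with each library left out. The causes were not tested. The sparsest member, Spag11b, had 573 UMIs and the Lhx1 group 79 cells.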
